A study of Mus musculus with 22 samples.

Results

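The aryl hydrocarbon receptor and its closest partners were followed in mouse lung epithelial cells exposed to carbon nanotubes. The set comprised 7 genes, the receptor Ahr, its partner Arnt, its repressor Ahrr and the direct targets Cyp1a1, Cyp1a2, Cyp1b1 and Tiparp, out of 20018 genes named on the array. Members were all probes whose accession belongs to these genes, which gave 11 of 55681 probes. Ahr, Arnt, Ahrr and Tiparp had 2 probes each, and Cyp1a1, Cyp1a2 and Cyp1b1 had 1 each. The cells were FE1, a spontaneously immortalised line from the lung of a transgenic MutaMouse that carries a lacZ reporter. All groups were kept in the same medium with fetal bovine serum and murine epidermal growth factor. They were exposed for 24 h to Mitsui7, a multi-walled carbon nanotube preparation suspended in that medium, at a low dose of 12.5 µg/ml (n = 6), a medium dose of 25 µg/ml (n = 5) or a high dose of 100 µg/ml (n = 6). The control group received 0 µg/ml (n = 5). On each of the 22 arrays, sample RNA was labelled with Cy5 and a reference pool of RNA from mouse cell lines with Cy3, so a level is the log2 ratio of sample to reference. A probe was called changed when its limma adjusted p was at most 0.05, its change reached 1.5-fold and its signal exceeded that of the negative controls on 4 or more arrays of either group compared, which is meant by detected.

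The aryl hydrocarbon receptor is a ligand-activated transcription factor. It waits in the cytoplasm bound to HSP90 and other chaperones, and when a ligand such as a polycyclic aromatic hydrocarbon, a dioxin or a tryptophan metabolite binds, it moves to the nucleus and pairs with ARNT. The pair binds a short core sequence in DNA and induces cytochrome P450 enzymes of family 1, which oxidise the ligand. It also induces AHRR, which competes for ARNT, and TIPARP, an ADP-ribosyltransferase that modifies the receptor and lowers its activity. In lung epithelium the pathway is known for its response to combustion products.

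The letters of the core, GCGTG, were sought on both strands of the promoter windows that RefSeq gives for GRCm38.p6, from 250 bases before to 50 bases after the gene start. Windows were at hand for 6 of the 7 genes, Ahr being the one not used here. The core or its reverse complement CACGC stood 3 times in the window of Ahrr, 1 time each in those of Arnt, Cyp1a1, Cyp1b1 and Tiparp, and 0 times in that of Cyp1a2. Of all 32851 windows of this length, 32.4% held it at least 1 time and 3.91% held it 3 or more times. The longer form TNGCGTG was found 1 time in the window of Ahrr and in no other member window, against 5.07% of all windows. A match describes letters and is not a mapped binding site. The windows of Cyp1b1 (chr17:79715012-79715311, minus strand), Tiparp (chr3:65528197-65528496, plus strand), Ahrr (chr13:74292282-74292581, minus strand) and Cyp1a1 (chr9:57697363-57697662, plus strand) are shown. As described in what follows, Cyp1b1 was called lower and Tiparp was not called, while Ahrr and Cyp1a1 gave too little signal to be compared. Each window is written 5′ to 3′ on the strand of the gene, with the core in capitals.
Cyp1b1: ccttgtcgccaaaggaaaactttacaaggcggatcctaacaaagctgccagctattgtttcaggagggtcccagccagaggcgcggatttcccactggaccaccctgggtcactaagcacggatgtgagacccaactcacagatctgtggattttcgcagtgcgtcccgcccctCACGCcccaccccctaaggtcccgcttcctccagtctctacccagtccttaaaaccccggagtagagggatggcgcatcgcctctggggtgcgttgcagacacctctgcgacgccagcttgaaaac
Tiparp: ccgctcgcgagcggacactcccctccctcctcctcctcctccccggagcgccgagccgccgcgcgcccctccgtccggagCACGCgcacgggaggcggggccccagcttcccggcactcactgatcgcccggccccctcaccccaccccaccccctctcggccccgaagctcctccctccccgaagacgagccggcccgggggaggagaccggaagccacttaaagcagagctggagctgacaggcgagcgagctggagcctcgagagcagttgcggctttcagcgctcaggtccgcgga
Ahrr: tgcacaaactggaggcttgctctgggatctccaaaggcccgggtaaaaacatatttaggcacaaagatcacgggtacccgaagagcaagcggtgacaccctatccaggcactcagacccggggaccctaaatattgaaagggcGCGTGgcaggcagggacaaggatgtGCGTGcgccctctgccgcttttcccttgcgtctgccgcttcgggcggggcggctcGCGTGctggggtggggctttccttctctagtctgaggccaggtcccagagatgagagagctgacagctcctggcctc
Cyp1a1: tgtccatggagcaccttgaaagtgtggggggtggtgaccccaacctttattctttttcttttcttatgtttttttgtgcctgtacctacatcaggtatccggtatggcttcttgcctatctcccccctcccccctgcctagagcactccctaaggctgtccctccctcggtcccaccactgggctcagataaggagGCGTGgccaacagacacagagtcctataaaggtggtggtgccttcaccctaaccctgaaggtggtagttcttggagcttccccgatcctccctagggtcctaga

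Signal decided which members could be compared. Over all arrays 23688 to 39139 probes were above the negative control level of 74.3 to 119 units of Cy5. Of the 5 slides, slide 1 carried 2 samples from every group, slides 2, 3 and 4 carried 1 from every group, and slide 5 carried low dose replicate 5 and high dose replicate 5. Over the 2302 probes called at 1 or more doses and measured on all arrays, 18 of 22 arrays lay closest to the mean of their own group. These probes were picked because they differed from the controls on the same arrays. Closeness to the own group was thus partly built in and is no check of the labels. The exceptions were low dose replicate 1, medium dose replicates 1 and 2 and high dose replicate 6, each of which lay closest to another exposed group. The arrays of a group may come from repeated exposures within a day, so p-values measure the spread between these samples, which may be partly technical.

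Cyp1a1 and Cyp1a2, the classical inducible enzymes of the pathway, gave no signal above the negative controls in any group. The Cyp1a1 probe read 60 to 74 units of Cy5 and the Cyp1a2 probe 55 to 79, and both were detected on 0 of 22 arrays. Ahrr, the repressor, was equally dim. Its probe A_51_P254425 read 67 to 90 units and was detected on 4 arrays, and A_55_P2128388 read 59 to 81 units and was detected on 1. None of these 4 probes was well above background on any array by the mark of the scanner, at 0, 12.5, 25 or 100 µg/ml. No fold change is given for them, and at this signal a difference was not detectable. The Cy3 signal of the reference RNA ran from 50.5 to 118 units for A_51_P254425, against 22 to 50 for A_55_P2128388.

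**Figure D1:**
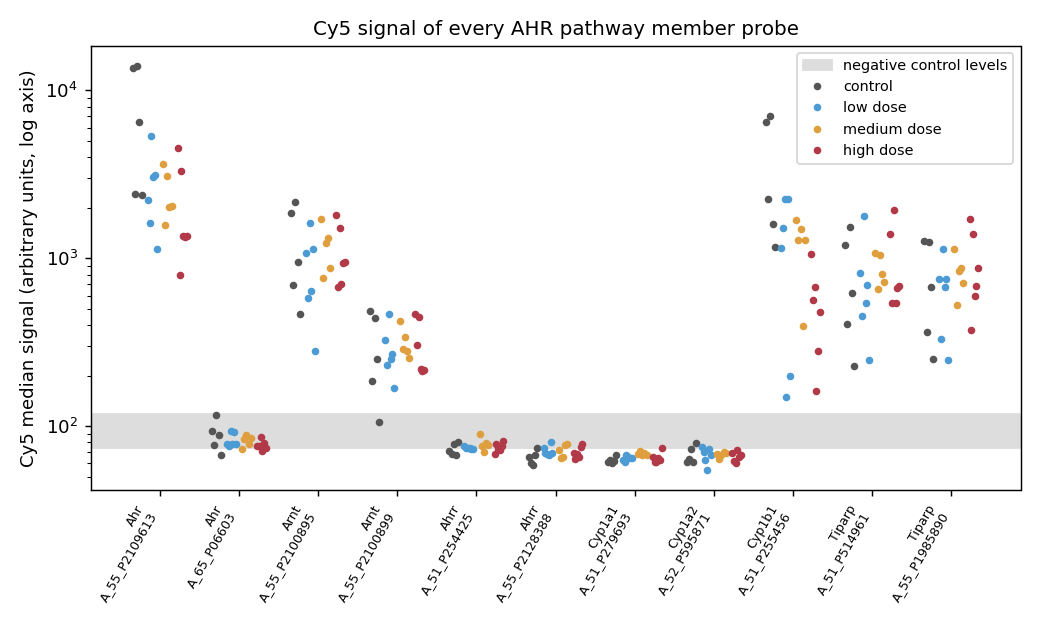
Cy5 median signal (log axis, arbitrary units) of each of the 11 probes, 1 point per array coloured by dose group. The grey band is the range of the negative control level over arrays, 74.3 to 119 units. The brighter probe of Ahr and the probes of Arnt, Cyp1b1 and Tiparp lie above the band on nearly all arrays, and those of Ahrr, Cyp1a1 and Cyp1a2 lie at or under it.

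At the low dose 7 of the 11 member probes were detected and 2 were called, where 3.26% of all detected probes were called. At the medium dose it was 2 of 6, against 5.61% of all detected probes. At the high dose it was 2 of 6, against 7.55% of all detected probes. The same probes were called at each dose, that of Cyp1b1 and the brighter probe of Ahr, and both were lower than in the controls. No member probe was called higher. The median change of the detected member probes was -0.02, 0.06 and 0.03 in order of dose, and that of all detected probes 0.006, 0.006 and 0.011. The detected probes came from 4 genes, Ahr, Arnt, Cyp1b1 and Tiparp. The 3 comparisons share the same 5 control arrays.

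The RNA of the receptor itself fell at every dose. In the 5 controls the log2 ratio of Ahr (A_55_P2109613, NM_013464) was 2.49, 1.33, 1.98, 1.86 and 2.09. In the 6 low dose samples it was 0.73, 1.00, 1.04, 1.26, 1.01 and 0.95. In the 5 medium dose samples it was 0.92, 0.44, 0.79, 0.20 and 0.65. Each of these exposed values lay below the lowest control, replicate 2 at 1.33. In the 6 high dose samples it was 0.80, -0.17, 0.28, 0.49, 0.08 and 0.23, again all below the controls. The share of all detected probes whose groups separate in this way was not taken, here or for Cyp1b1 below. Such separation is therefore only described. The group means ran in the order of dose, from 1.95 ± 0.42 (SD, n = 5) in the controls through 1.00 ± 0.17 (n = 6) and 0.60 ± 0.29 (n = 5) to 0.28 ± 0.34 (n = 6).

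Against the controls Ahr was lower by 1.91-fold at the low dose (log2 change -0.93, SE 0.19, limma adjusted p = 0.00697). At the medium dose it was lower by 2.55-fold (-1.35, SE 0.20, adjusted p = 0.000166). At the high dose it was lower by 3.13-fold (-1.65, SE 0.19, adjusted p = 7.39e-06). The change was negative on each of the 4 slides that held a control. Within slides it ran from -1.13 to -0.60 at the low dose, from -1.66 to -1.20 at the medium dose and from -1.86 to -1.37 at the high dose. In bulk RNA, fewer cells with a transcript and less of it per cell cannot be told apart. The calls at the low and medium dose were lost when arrays were centred on their median instead of by loess (-1.08, adjusted p = 0.157, and -1.27, adjusted p = 0.0643), and that at the low dose also without slide 3 (-0.93, adjusted p = 0.0578). Over all alternatives the adjusted p of Ahr ran from 0.000631 to 0.157 at the low dose, from 1.04e-05 to 0.0643 at the medium dose and from 2.87e-07 to 0.0041 at the high dose. Without the 4 arrays that lay closest to another group, a choice made after seeing the data, the changes were -0.87, -1.43 and -1.61 and were called.

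The other probe of Ahr, A_65_P06603, bears the same accession but stood close to the negative controls, at 67 to 116 units of Cy5 against 796.5 to 13952.5 for the brighter probe. It was above the negative control level on 13 arrays and well above background on 1, a control. It met the detection rule only at the low dose. Its changes were -0.02, -0.12 and -0.23 with adjusted p of 0.954, 0.666 and 0.180, so the change in Ahr rests on the brighter probe alone.

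**Figure D2:**
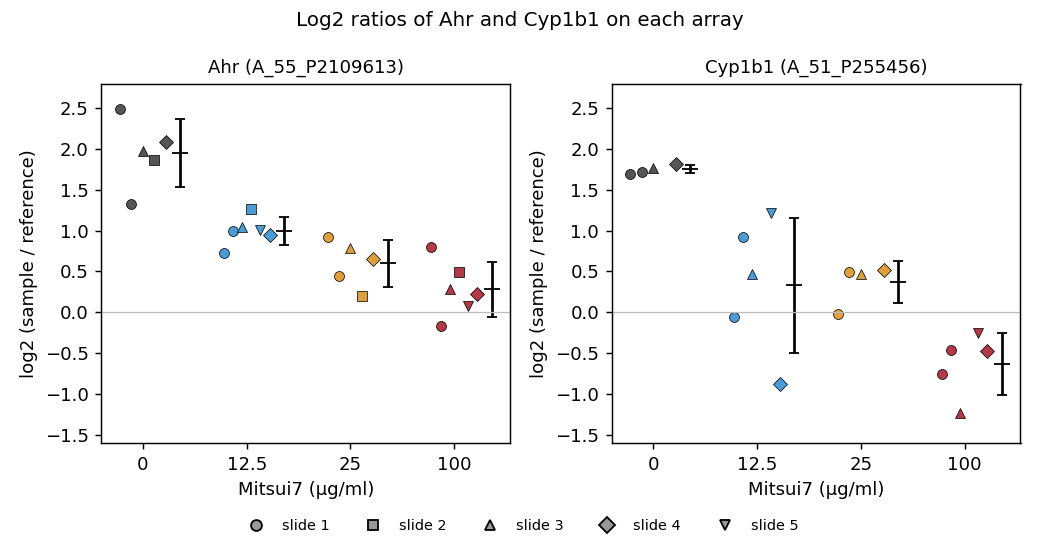
Log2 ratio of sample to reference for Ahr (left) and Cyp1b1 (right) against the dose of Mitsui7 in µg/ml, 1 point per array with its slide as symbol, and the mean ± SD of each group beside the points. Every exposed array lies below every control for both genes, and Cyp1b1 has no value on slide 2. The share of all detected probes that separate in this way was not taken.

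Cyp1b1, the family 1 enzyme that oxidises polycyclic hydrocarbons and estradiol and is common in cells outside the liver, also fell at every dose. In the controls with a value the log2 ratio (A_51_P255456, NM_009994) was 1.69, 1.72, 1.77 and 1.81. In the low dose samples it was -0.06, 0.92, 0.47, 1.22 and -0.88. These 5 values all lay below the controls and were spread far wider, with an SD of 0.83 against 0.05. In the medium dose samples it was -0.02, 0.49, 0.47 and 0.52. In the high dose samples it was -0.75, -0.46, -1.23, -0.25 and -0.47. Every high dose value given here lay below zero, and none reached the lowest medium dose value. The spots of replicate 4 in each group, all on slide 2, were marked as outliers by the scanner software and left out of these values, so n is 4, 5, 4 and 5. If kept, they read 1.37 in the control, -0.89 at the low, -0.01 at the medium and 0.05 at the high dose. That high dose spot lay above zero and above the lowest medium dose value, and that control spot lay below the other controls.

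The decrease of Cyp1b1 was 2.97-fold at the low dose (log2 change -1.57, SE 0.27, limma adjusted p = 0.00279). It was 2.60-fold at the medium dose (-1.38, SE 0.28, adjusted p = 0.00603) and 5.81-fold at the high dose (-2.54, SE 0.27, adjusted p = 9.15e-06). On slides 1, 3 and 4 the change ran from -2.69 to -1.28, from -1.47 to -1.29 and from -3.0 to -2.28 at the 3 doses. With the outlier spots kept, slide 2 gave -2.26, -1.38 and -1.32, and the fit over all arrays gave -1.67, -1.38 and -2.32 with adjusted p of 0.00184, 0.00703 and 2.09e-05. Without slide 1 the calls of Cyp1b1 were lost at the low and at the medium dose (-1.85, adjusted p = 0.0537, and -1.29, adjusted p = 0.177). With median centring the call at the medium dose was lost too (-1.32, adjusted p = 0.0787). Over all alternatives its adjusted p ran from 0.000643 to 0.0537, from 0.000299 to 0.177 and from 3.02e-07 to 0.00361 in order of dose. Without the 4 arrays that lay closest to another group, the changes of Cyp1b1 were -1.46, -0.99 and -2.74, and that at the medium dose was not called (adjusted p = 0.157).

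Whether the doses differed from each other was tested in the same fit. Only 0.248% of all detected probes were called between the high and the low dose, and by limma 0 probes were called between neighbouring doses. An unadjusted limma p under 0.05 was seen for 2304 of 31536 detected probes (medium against low) and for 1647 of 32613 (high against medium). By chance a share of 0.05 would have one. Ahr was lower at the high than at the low dose (log2 difference -0.71, 95% CI -1.09 to -0.34, adjusted p = 0.11), and 5 of the 6 high dose arrays lay below all low dose arrays. With samples blocked by their replicate number and no slide term, this difference was -0.71 with an adjusted p of 0.0216 and was called, the range over all alternatives being 0.0216 to 1. The step from low to medium was -0.42 (95% CI -0.82 to -0.02, adjusted p = 0.869), with 3 of 5 medium dose arrays below all low dose arrays, and that from medium to high was -0.30 (95% CI -0.70 to 0.11, adjusted p = 0.999). Neither passed the adjusted threshold. For Cyp1b1 the difference of high from low was -0.97 (95% CI -1.5 to -0.43, adjusted p = 0.153), and without low dose replicate 6 it was -1.28 with an adjusted p of 0.0131 and was called, the range over all alternatives being 0.0131 to 1. The difference of high from medium was -1.16 (95% CI -1.74 to -0.58, adjusted p = 0.999), although all 5 high dose values lay below all medium dose values. With the outlier spots of slide 2 kept, the difference of high from low shrank to -0.65 (adjusted p = 0.509) and that of high from medium to -0.94. The high dose values then no longer all lay below the medium dose values. The low and medium dose levels of Cyp1b1 differed by 0.19 (95% CI -0.39 to 0.77), with a reversed sign of -0.10 under the replicate block and of -0.16 without low dose replicate 6.

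Tiparp, whose product restrains the receptor, had positive changes at all doses but was not called. The log2 ratio of A_51_P514961 was -1.56, -1.82, -1.91, -2.10 and -1.87 in the controls. In the low dose samples it was -1.20, -1.53, -1.35, -1.83, -1.77 and -1.97. These groups overlapped, with 3 of 6 low dose arrays above all controls. In the medium dose samples it was -1.25, -1.46, -1.23, -1.65 and -1.59. In the high dose samples it was -1.27, -1.25, -1.18, -1.72, -1.49 and -1.47, and 5 of these 6 lay above all controls. The changes were 0.27 (SE 0.09, adjusted p = 0.151), 0.42 (SE 0.10, adjusted p = 0.0113) and 0.48 (SE 0.09, adjusted p = 0.00182). At the medium and high dose the adjusted p passed the threshold, but the sizes of 1.33-fold and 1.40-fold stayed under the 1.5-fold limit and Tiparp was not called. The adjusted p did not pass with median centring (0.599 and 0.524), in the series matrix values (0.756 and 0.117) or without a slide term (0.16 and 0.0558), and the series matrix gave a medium dose change of 0.17. Over all alternatives it ran from 0.00398 to 0.756 at the medium and from 0.00035 to 0.524 at the high dose.

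The other probe of Tiparp, A_55_P1985890, gave changes of the same sign. They were 0.20 (SE 0.15, adjusted p = 0.633), 0.36 (SE 0.15, adjusted p = 0.257) and 0.47 (SE 0.15, adjusted p = 0.0653). In this probe control replicate 1 stood apart at -0.39, the other controls lying between -1.05 and -0.90. Without that array the high dose change was 0.59 with an adjusted p of 0.0154 and was called, and without slide 1 it was 0.60 with an adjusted p of 0.0366, the range over all alternatives being 0.0041 to 0.729.

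Arnt, the shared partner of AHR and of the hypoxia-inducible factors, was well above background and was not called at any dose. In its brighter probe A_55_P2100895 the 5 controls ran from -0.82 to -0.23, the 6 low dose samples from -1.27 to -0.59, the 5 medium dose samples from -1.03 to -0.24 and the 6 high dose samples from -0.96 to -0.51. All groups overlapped. The changes were -0.38 (adjusted p = 0.153), -0.01 (adjusted p = 0.991) and -0.16 (adjusted p = 0.664). The other probe, A_55_P2100899, changed by 0.28, 0.14 and 0.22 (adjusted p = 0.211, 0.666 and 0.307). The probes share the accession NM_001037737 and had opposite signs, so no direction is given for Arnt. The 95% CIs of the high dose change were -0.44 to 0.12 and -0.01 to 0.44.

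**Figure D3:**
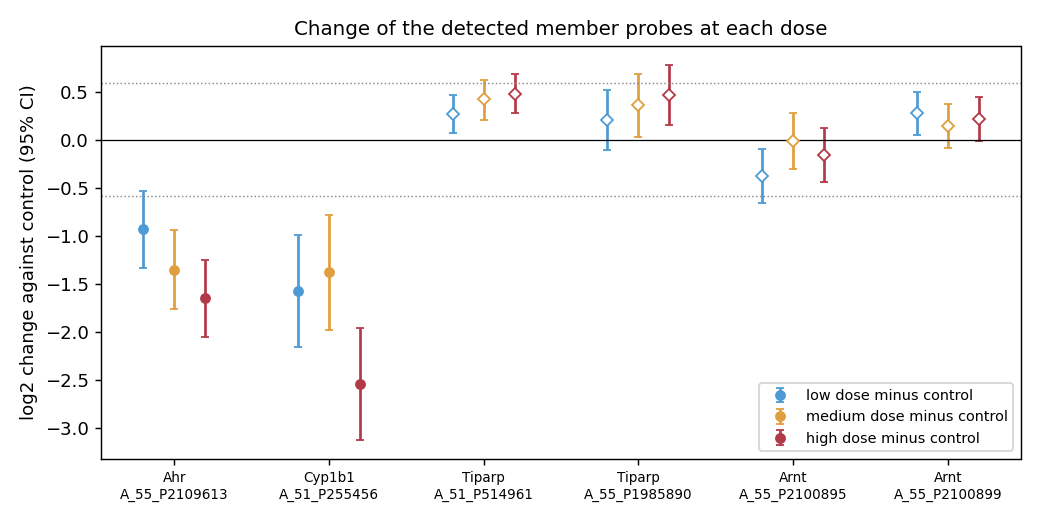
Log2 change against control at each dose for the brighter probe of Ahr and the probes of Cyp1b1, Tiparp and Arnt, with 95% confidence intervals from limma. Filled circles are called, open diamonds are not, and dotted lines mark 1.5-fold. Ahr and Cyp1b1 lie below the lower line at all doses, from -0.93 to -2.54, while all points of Tiparp and Arnt lie between the lines.

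**Figure D4:**
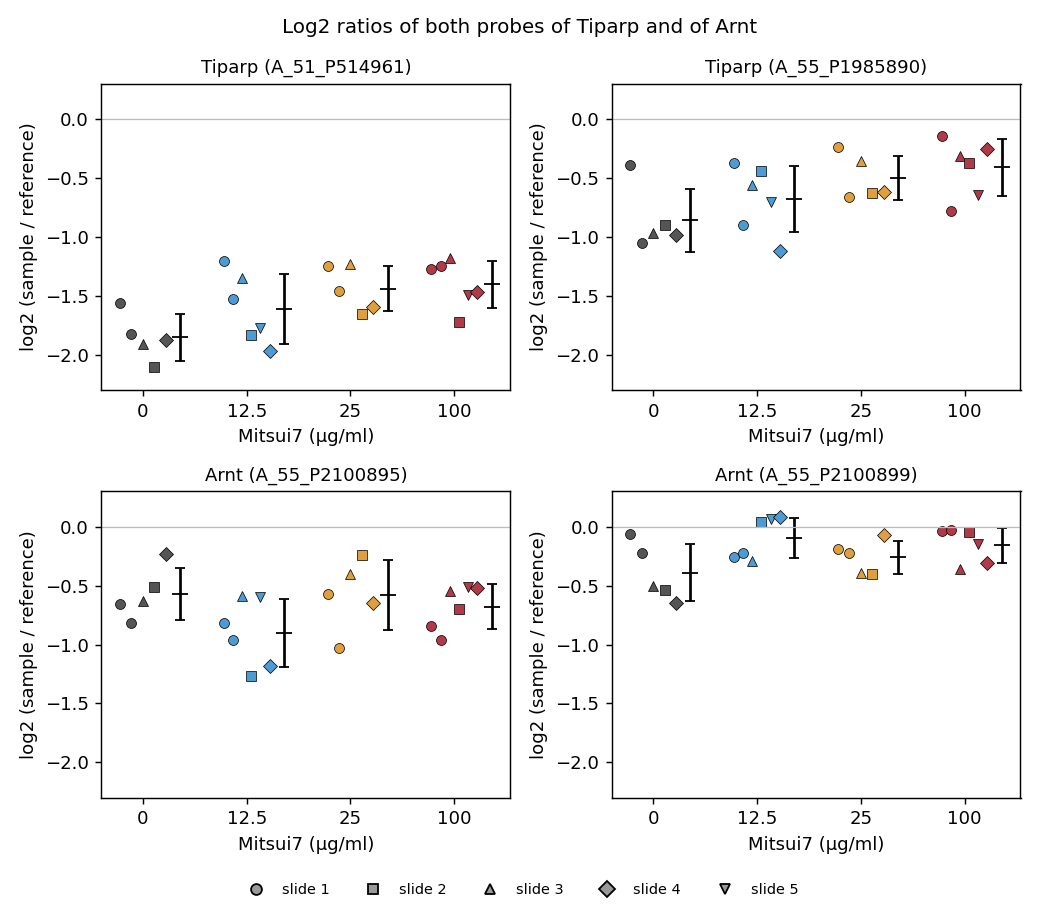
Log2 ratio of sample to reference for both probes of Tiparp (top) and of Arnt (bottom) against the dose of Mitsui7 in µg/ml, 1 point per array with its slide as symbol, and mean ± SD beside. The means of Tiparp run from -1.85 in the controls to -1.40 at the high dose on the left and from -0.86 to -0.41 on the right, and the groups of Arnt overlap in both panels.

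Each gene was represented here by the probe with the highest correlation. The genes whose slide-adjusted log2 ratio followed Ahr most closely over 22 arrays, among 12277 genes, were Grb14 (r = 0.970), Ddx58 (r = 0.969), C1ra (r = 0.968), Epas1 (probe A_51_P250058, r = 0.964) and Cyria (r = 0.963). Their high dose changes were -1.31, -0.81, -1.21, -2.19 and -0.97, but the brightest probe of Epas1, A_55_P2077448, changed by 0.21. Cyp1b1 ranked 468 on this scale (r = 0.811 over the 18 arrays with a value), Arnt 5259 (r = 0.128) and Tiparp 9591 (its less bright probe A_55_P1985890, r = -0.354). The genes most like Cyp1b1 over 18 arrays, among 11616, were Arhgdib (r = 0.961), Fam114a1 (r = 0.961), Hdhd3 (r = 0.949), Pmvk (r = 0.945) and Mindy2 (r = 0.941). These values describe arrays that share slides and dose groups and carry no test.

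Around these members, 77 further genes in 9 lists were read by their brightest detected probe, and 4, 9 and 13 of them were called in order of dose. Of these genes 59, 60 and 63 were detected. The shares of all detected probes given for the members can be set beside these counts, but they also cover dimmer, repeated and unnamed probes. A share over the brightest probe of every named gene was not taken. The AHR complex partners, which hold the receptor in the cytoplasm, had 0 of 5 detected genes called at any dose, with a median high dose change of 0.21. The coregulators of transcription had 0 of 9 called, with a median of 0.23. In the battery of phase II enzymes 0 of 4 detected genes were called at the high dose. Their median change was 0.22, against -0.09 at the low and -0.17 at the medium dose. Nqo1, well above background on all 5 controls, changed by -0.24, -0.34 and -0.44. Its limma adjusted p was 0.439, 0.168 and 0.0344, and its size stayed under 1.5-fold. Aldh3a1 changed by 0.09 at the high dose. Gsta1 and Gsta2 changed by 0.34 and 0.40, but were well above background on 0 of 5 controls.

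Among 6 detected further genes that AHR ligands are known to induce, 2 rose and 1 fell at every dose. Cyp2s1, an epithelial P450, fell at all doses (log2 changes -1.15, -1.14 and -1.49, adjusted p = 9.33e-06, 1.83e-05 and 1.09e-07), and was called under all 41 alternatives that gave a change. Ereg, a ligand of the epidermal growth factor receptor, rose by 0.84, 1.16 and 1.19 (adjusted p = 0.00614, 0.000225 and 7.62e-05). Serpinb2, an inhibitor of plasminogen activators, rose by 1.38, 1.33 and 1.63 (adjusted p = 0.00681, 0.00703 and 0.000577), but the scanner marked it as well above background on 1 of the 5 controls, against every exposed array. Its size was therefore not fixed. The log ratio of the scanner software gave 2.98, 2.96 and 3.36, and median centring gave 0.98, 0.90 and 1.25, with the medium dose call lost (adjusted p = 0.0762). Without slide 1 the low and medium dose calls were lost too (adjusted p = 0.0606 and 0.106). The other 3 detected genes were not called at any dose.

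The bHLH-PAS relatives of AHR had 1 of 8 detected genes called at the medium dose and 2 of 10 at the high dose. Bmal1, a clock factor, rose by 0.74 and 0.62 at these doses (adjusted p = 0.00763 and 0.0157). Hif1a, the hypoxia-inducible subunit that also pairs with ARNT, fell at the high dose (log2 change -0.70, adjusted p = 0.007). At the high dose the call of Bmal1 held under 33 of 41 alternatives and that of Hif1a under 36. Epas1, which encodes a further hypoxia-inducible subunit, had 3 probes of accession NM_010137 that disagreed. Its brightest, A_55_P2077448, changed by 0.26, -0.04 and 0.21 and was not called. A_51_P250058 changed by -1.31, -1.83 and -2.19 and was called at each dose. A_55_P2053988 changed by -0.47, -0.64 and -0.87 and was called at the medium and high dose.

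Of 12 detected HIF target genes, whose induction also needs ARNT, 2 rose and 3 fell at the high dose, with a median of -0.36. Ndrg1 rose by 1.16, 1.27 and 1.55 at the 3 doses (adjusted p = 9.81e-06, 2.69e-06 and 7.35e-08). Vegfa, the endothelial growth factor, rose by 0.61 and 0.65 at the medium and high dose (adjusted p = 0.000617 and 0.000135), calls that held under 34 and 40 of 41 alternatives. The other probe of Vegfa was called higher at the low and high dose but not at the medium dose. Pdk1, which limits the entry of pyruvate into mitochondria, fell at the high dose (log2 change -1.13, adjusted p = 0.000105), as did Bnip3, a mitophagy receptor (-0.88, adjusted p = 0.00519), and Ankrd37 (-0.79, adjusted p = 0.00404). At the medium dose Pdk1 (-0.89, limma adjusted p = 0.00228) and Bnip3 (-0.88, limma adjusted p = 0.00918) were called lower too. These medium dose calls held under 39 and 36 of 41 alternatives. The call of Ankrd37 at the medium dose (-0.60, adjusted p = 0.0477) held under 14 of 41 alternatives. Without slide 1 the high dose change of Bnip3 was -0.43 (adjusted p = 0.195), the range over all alternatives being 0.000901 to 0.195.

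Of the 5 redox partners of P450 enzymes, Cyb5a, a cytochrome that passes electrons to P450s, fell at the high dose (log2 change -0.64, adjusted p = 0.000695) and Alas1, which makes the first precursor of haem, rose by 0.60 (adjusted p = 0.0116). These calls held under 37 and 31 of 41 alternatives, and the other probe of Alas1 was not called higher. The enzymes that turn tryptophan into kynurenine, a source of AHR ligands, had 0 of 6 detected genes called at any dose, and no probe of Ido1 or Tdo2 was detected. Of 6 detected other P450 genes, Cyp3a13 was called at the high dose by its brighter probe (log2 change 0.79, adjusted p = 0.000368), while its other probe was not called higher. The brighter probe was well above background on 0 of 5 control and 5 of 6 high dose arrays. It was at least 1.41-fold higher, from normalised Cy5 means of 6.46 against a bound of 5.96 on the log2 scale. This bound sets Cy5 against Cy5 between arrays, since all samples carried that dye.

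**Figure D5:**
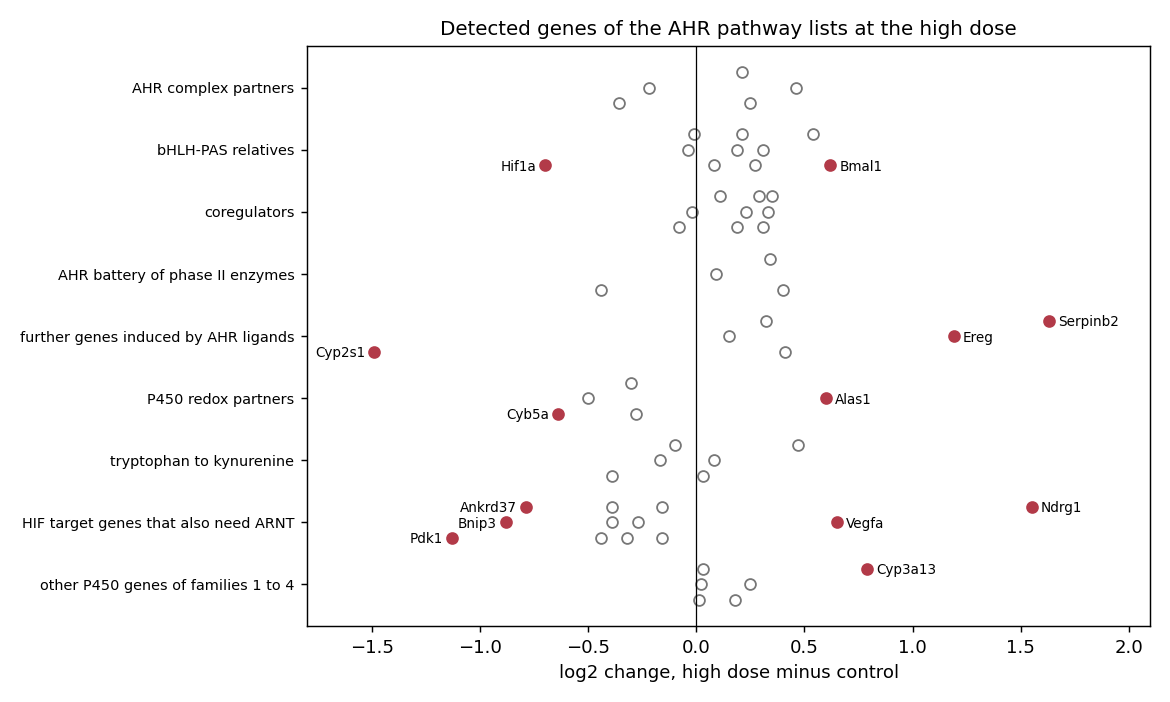
Log2 change from control to the high dose for each detected gene of the 9 pathway lists, by its brightest detected probe. Filled points are called and named, and open points are not called; 13 genes are called, on both sides of 0, and none in the lists of complex partners, coregulators, phase II enzymes or the tryptophan pathway.

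The label of the cells was set against marker genes. Of 8 epithelial markers, Epcam and Cdh1 were not detected. Krt7 and Krt18 were well above background on all 5 controls, Krt8, Krt19 and Cldn7 on 4 of 5, and Muc1 on 0 of 5. The mean log2 ratio of the 6 detected epithelial markers was far below the reference, from -3.27 to -2.51 in the controls and from -3.31 to -2.87 at the high dose. Krt7 fell at the medium and high dose (log2 changes -0.79 and -0.85, adjusted p = 0.000258 and 5e-05). None of the 8 alveolar and airway markers was well above background on all controls. Of 8 leukocyte markers 3 were (Itgam, Cd3e and Csf1r), and of 6 endothelial markers 1 was (Kdr). No leukocyte or endothelial marker was called. All 8 mesenchymal markers were well above background on all controls, and 4, 6 and 6 of them fell in order of dose. The mean log2 ratio of these 8 markers ran from -0.31 to 0.08 in the controls, from -1.04 to -0.40 at the low dose, from -1.16 to -0.79 at the medium dose and from -1.42 to -0.76 at the high dose. The exposed arrays thus lay below the controls in this mean as they did for Ahr and Cyp1b1, and the part of mesenchymal gene expression in the lower Ahr and Cyp1b1 was not tested.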

How the data were processed

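The deposited scanner files give, per spot, a median intensity for Cy5 and for Cy3, extracted with Feature Extraction 10.7.3.1 per the file headers, and a log10 ratio that the scanner software made. A series matrix from the authors gives log2 ratios whose normalization is not stated in the sources used here; its column medians ran from 0.00433 to 0.0267. From the median intensities without background subtraction, log2(Cy5/Cy3) underwent loess normalization array by array, outlier-marked spots were set to missing, and spots of a probe were combined by their median. Symbols came from RefSeq accessions (26413 of 55681 probes matched). A probe was detected where Cy5 was above the mean of 308 negative control spots, trimmed by 5%, by over 3 trimmed SDs. The comparisons used limma 3.58.1 (R 4.3.3) in 1 model with group and slide over 22 arrays, as the methods of the study fit treatment and slide; limma stood in for their shrinkage test. The Benjamini-Hochberg adjustment of p-values ran over the 55681 probes. Same-numbered samples deviated together (all 31 pairs over 0.1, lowest r 0.187, median 0.494), but 27 of these pairs also share a slide, so number and slide can hardly be told apart. The other 4 pairs had a median r of 0.448, and pairs on the same slide with other numbers 0.328. A replicate block was tried in place of slide; of the member results it changed the call only of the difference of Ahr between the high and the low dose. The fit was tested on simulated data. A member gene is led by its brightest probe and its other probes are given too. Genes of the lists are read by their brightest detected probe and named where called at 1 or more doses. Other probes of list genes are mentioned only for some of them. The genes most like Ahr and Cyp1b1 are the 5 with the highest r. The members, lists and tests were chosen with earlier results of these data known. In all, 43 alternatives were run; leaving out the 4 arrays nearest to another group, and the alternatives of the list genes, were chosen after seeing the data.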

Additional observations from a re-analysis of the deposited data

Results flagged for a closer look

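Among the 44 groups of values examined (11 probes in 4 dose groups), 4 had a sample far from the rest by Dixon's criterion, and chance marks about 1 group in 20. Cyp1b1 in medium dose replicate 1 stood at -0.02, below the other medium dose samples at 0.47 to 0.52. Tiparp (A_55_P1985890) in control replicate 1 stood at -0.39, above the other controls. Cyp1a2, whose signal was under the negative control level throughout, stood at -0.64 in low dose replicate 4 and at -0.13 in medium dose replicate 2.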

How the results depend on the processing

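Over 43 alternatives, the calls of Ahr and Cyp1b1 at the high dose held wherever a change was given, with Ahr between -1.81 and -1.49 and Cyp1b1 between -2.78 and -2.25. With median centring the member probes called fell to 1 at the low and 0 at the medium dose, with Ahr at -1.08 and -1.27 and Cyp1b1 at -1.32 for the medium dose, and 3 and 7 genes of the pathway lists were called at the medium and high dose. Over all probes it left 423, 606 and 1296 calls. With a 2-fold threshold 1 member probe was called at the low dose, and 4 and 5 list genes at the medium and high dose, with 263, 447 and 714 probes in all. Without a fold threshold 8 list genes were called at the low dose, and 1889, 2924 and 4457 probes in all. With only the control and low dose arrays in the fit 653 probes were called. Without slide 1 the member counts were 1 at the low and 1 at the medium dose, with Cyp1b1 at -1.85 and -1.29, and 5 and 8 list genes were called at the medium and high dose. Without slide 3 the low dose count was 1 and Ahr stood at -0.93. Without slide 4 the difference of Cyp1b1 between high and low was -1.31 and called, and that between medium and low was -0.16. Without the 4 arrays nearest to another group (low dose replicate 1, medium dose replicates 1 and 2, high dose replicate 6; chosen after seeing the data), 1 member probe was called at the medium dose, with Cyp1b1 at -0.99, the dim Ahr probe at 0.01 and Arnt at 0.07. Under the replicate block, the paired fit, the difference of Ahr between high and low was -0.71 and called, and that of Cyp1b1 between medium and low was -0.10. Leaving out each array in turn, the Cyp1b1 differences ran from -1.28 to -0.78 (high to low) and from -0.16 to 0.41 (medium to low). The sign turned for changes near zero. The low dose change of the dim Ahr probe was 0.23 with median centring, 0.04 without slide 1, 0.02 without slide 3 and 0.01 without low dose replicate 1 and medium dose replicate 2, and from -0.10 to 0.03 leaving out single arrays. The medium dose change of Arnt (A_55_P2100895) was 0.08 with median centring, 0.03 without slide 1, 0.09 without slide 4 and 0.08 without low dose replicate 1 and medium dose replicate 2, and from -0.11 to 0.08 leaving out single arrays. Of the named list genes, Ankrd37 at the medium dose (14 of 41) and Alas1 (31), Bmal1 (33), Hif1a (36) and Cyb5a (37) at the high dose lost their call under several alternatives. The cause of these differences was not tested. Signal near the negative controls limits Ahrr, Cyp1a1, Cyp1a2 and the dim Ahr probe.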
